A study of Homo sapiens with 54 samples.

Results

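The data described here are the messenger RNA levels of 57 genes of the G2 phase and of mitosis, of 50037 genes in the deposited table. The 57 were taken by symbol from a fixed list, and each was followed through 18 groups of 2 human cancer cell lines, HCT116 and HepG2. HCT116 comes from a cancer of the colon, and HepG2 from a cancer of the liver, although its labels read liver cancer stem cell. Polyadenylated RNA was sequenced from 54 libraries, 3 in each group.

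In each line, cells received 50 ng/mL of IL-6 or of IL-10, 100 ng/mL of TNF-α or 1 µM of Torin1, and each agent acted for 3 h or 6 h. The comparison group of each line, called NC in the labels, received an equal volume of medium, and its labels give no hour. IL-6, IL-10 and TNF-α are cytokines, and Torin1 is an inhibitor of the kinase mTOR. The series text counts 60 samples and mentions a recovery group after Torin1, which was not analysed here. Nothing in the labels says that the 3 libraries of a group came from separate cultures, and the p-values here reflect only how far libraries of a group lay apart, which may be technical. The 8 agent groups of a line share the same 3 NC libraries, and the values of comparisons with NC are therefore given side by side and not correlated.

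Cells that pass from S phase to G2 make the proteins of chromosome condensation, spindle assembly and cell division in advance of mitosis, and many of these genes are transcribed together. Their promoters are bound by the DREAM complex in resting and G1 cells, which represses them, and by B-MYB, MuvB and FOXM1 in G2, which activate them. Both act through a promoter element called CHR, often near CCAAT boxes bound by NF-Y. In dividing cell lines the levels of these messengers follow the share of cells in G2 and mitosis. In bulk RNA, a change in that share and a change in RNA per cell cannot be told apart.

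Promoter windows from 250 bases before to 50 after the annotated start were found for 49 of the 57 genes in a RefSeq table of build GRCh38.p14. None was matched for AURKA, TTK, TPX2, UBE2C, BIRC5, CDCA2, FAM83D and RACGAP1. A CHR motif, searched as TTTGAA or TTCGAA on both strands, was present in the windows of 39 of the 49 genes (79.6%), against 19.5% of all 27305 genes with a window and 15.7% of the 9646 among them that were tested for expression. CCAAT, searched on both strands, was present for 40 of 49 (81.6%), against 39.7% of all genes with a window and 43.1% of those tested. The E2F motif of G1/S genes, searched as TTTCCCGC, TTTGGCGC or TTTCGCGC on both strands, was present for 3 of 49 (6.12%), against 3.30% of all genes with a window and 5.8% of those tested, so the share was near that of the tested genes. The E2F motif was present for 15 of the same 26 G1/S and DNA replication genes (57.7%). TTCGAA is its own reverse complement and counts once per position, and matches of different motifs can share bases at their ends. A match to these letters is a description of the window and does not show that a factor binds.

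The windows of 4 genes that recur in the results are printed with every CHR and CCAAT match in capitals, in the direction of transcription. CDC20 and PLK1 are shown because their messengers moved to opposite sides of NC with Torin1 at 6 h while both windows hold both motifs, and CKAP2L and HMMR because they were among the genes with the largest rises.
CDC20 promoter, chr1:43358731-43359030, plus strand: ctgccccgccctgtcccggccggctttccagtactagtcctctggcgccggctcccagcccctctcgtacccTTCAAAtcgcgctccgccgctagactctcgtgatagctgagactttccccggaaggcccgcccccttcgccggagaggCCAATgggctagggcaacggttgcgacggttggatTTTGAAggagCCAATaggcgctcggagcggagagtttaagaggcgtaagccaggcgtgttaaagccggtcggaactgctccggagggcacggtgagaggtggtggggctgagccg
PLK1 promoter, chr16:23678639-23678938, plus strand: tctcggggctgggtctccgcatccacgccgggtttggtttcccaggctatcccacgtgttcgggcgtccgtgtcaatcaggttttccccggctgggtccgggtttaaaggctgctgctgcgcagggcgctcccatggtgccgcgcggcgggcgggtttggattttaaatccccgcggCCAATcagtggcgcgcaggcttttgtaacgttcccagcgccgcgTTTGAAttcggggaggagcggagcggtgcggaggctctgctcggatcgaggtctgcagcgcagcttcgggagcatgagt
CKAP2L promoter, chr2:112764560-112764859, minus strand: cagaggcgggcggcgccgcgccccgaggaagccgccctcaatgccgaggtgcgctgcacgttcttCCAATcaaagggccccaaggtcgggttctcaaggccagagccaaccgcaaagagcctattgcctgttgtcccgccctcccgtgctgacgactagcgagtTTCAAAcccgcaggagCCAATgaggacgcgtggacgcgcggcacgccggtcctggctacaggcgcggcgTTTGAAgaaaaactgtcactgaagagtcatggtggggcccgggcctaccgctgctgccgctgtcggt
HMMR promoter, chr5:163460382-163460681, plus strand: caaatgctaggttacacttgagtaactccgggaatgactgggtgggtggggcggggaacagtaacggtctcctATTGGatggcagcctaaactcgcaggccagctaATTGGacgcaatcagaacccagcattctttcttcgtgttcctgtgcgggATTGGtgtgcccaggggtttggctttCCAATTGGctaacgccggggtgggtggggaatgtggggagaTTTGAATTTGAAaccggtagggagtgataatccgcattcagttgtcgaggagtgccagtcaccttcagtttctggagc
The CHR match nearest the start lay 65 bases before it in CDC20, 29 in PLK1, 17 in CKAP2L and 22 in HMMR, counted to the first base of the motif. The HMMR window held 5 CCAAT matches, 4 of them on the reverse strand, and 2 adjoining CHR matches. In HepG2, the median difference between Torin1 and NC was 0.37 over 38 members with a CHR match and 0.39 over 9 without at 3 h, and 0.18 and 0.04 at 6 h, on the log2(FPKM + 1) scale. The median gap between the Torin1 effects of the lines, HCT116 minus HepG2, was -0.37 with a match and -0.20 without at 3 h. These medians are a description, and no difference between them was tested.

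Levels are given as FPKM, fragments per kilobase of transcript scaled to a size of the library, as deposited. These sizes followed median-of-ratios scaling and not the total reads. The gene counts of a library summed to 38.5 to 55.7 M for HCT116, and for HepG2 to 46.3 to 93.7 M. All differences are log2 differences of FPKM + 1 with their standard errors, which understates the change of genes at low levels. A gene is said to have risen or fallen only where limma's moderated test, adjusted over all genes tested in that line by the method of Benjamini and Hochberg, gave p below 0.05. The test covered 56 of the 57 genes in HCT116 and 55 in HepG2. ARHGAP11A stayed under the filter of 1 FPKM in 3 libraries in both lines, and SPC25, a subunit of the NDC80 kinetochore complex, stayed under it in HepG2. Further entries of both symbols in the table share their reads, so both genes are uncertain. The summed FPKM of 6 hepatocyte markers was 1.40 to 7.53 in HCT116 libraries and 11815 to 14024 in HepG2 libraries. The 6 colon epithelium markers summed to 165 to 191 FPKM in HCT116 libraries and 146 to 169 in HepG2 libraries, with 2 of 6 above 1 FPKM in each line, so they did not set the lines apart. None of 4 blood cell markers had a median of 1 FPKM in either line.

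In untreated cells most of the 57 genes were well expressed in both lines. Mean NC levels in HCT116 ran between 1.15 FPKM for SPC25 and 192 FPKM for CCNB1, with a median of 34.5 and 53 genes at 5 FPKM or more. Mean NC levels in HepG2 ran between 4.15 FPKM for CENPE and 184 FPKM for TOP2A, with a median of 30.2 and 52 genes at 5 FPKM or more. Of 56 genes, 32 were higher and 16 lower in HCT116 NC than in HepG2 NC, where 42.2% and 43.3% of all 12992 genes tested were called in these directions. With libraries scaled by total reads the split was 40 higher and 8 lower. The lines differed most in single genes. KIF18A, a kinesin that dampens chromosome oscillation, averaged 22.02 ± 2.22 FPKM in HCT116 NC and 6.46 ± 0.167 FPKM in HepG2 NC (SD, n = 3 each). CDC20, an activator of the anaphase-promoting complex, averaged 145 ± 2.36 FPKM in HCT116 NC and 57.3 ± 0.680 FPKM in HepG2 NC (SD, n = 3 each). TOP2A, the topoisomerase that untangles sister chromatids, was 63.2, 54.9 and 61.5 FPKM in HCT116 NC and 186, 178 and 186 FPKM in HepG2 NC. AURKA, the kinase of centrosome maturation, was 48.8, 45.9 and 47.0 FPKM in HCT116 NC and 99.1, 99.9 and 98.9 FPKM in HepG2 NC. None of these 4 genes overlapped between the lines.

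**Figure D1:**
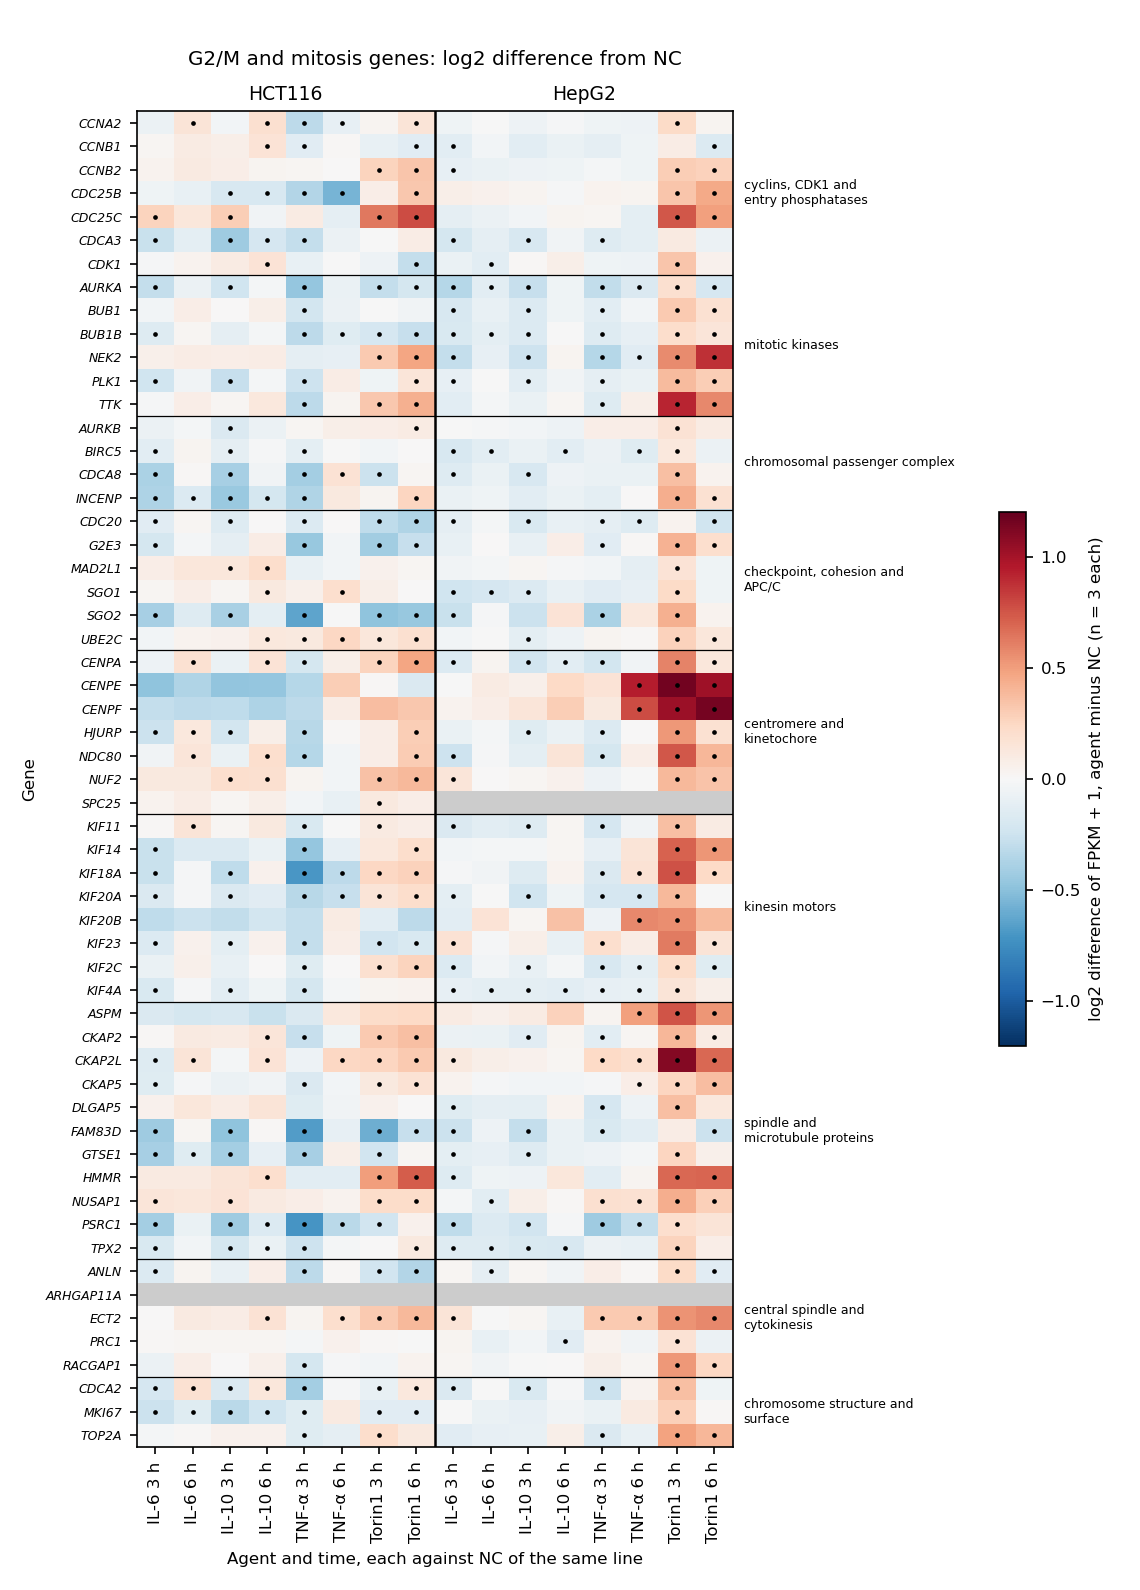
Log2 differences of 57 G2/M genes from NC of the same line (n = 3 libraries each), with genes in rows by role and agents and hours in columns. Dots mark limma adjusted p below 0.05 and grey marks genes under the filter, and the column of HepG2 Torin1 at 3 h is red for every gene tested, up to 1.16.

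Torin1 at 3 h raised nearly the whole group of genes in HepG2. Of 55 genes tested, 51 rose and 0 fell in Torin1-treated HepG2 cells at 3 h against NC, while over all 11280 genes tested 19.4% were higher and 26.1% lower. The median difference was 0.36 over the 55 genes and -0.04 over all genes tested. All 55 differences were above 0, so none fell at any threshold, and limma-voom on the recovered reads called 49 higher and 0 lower. Summed over the genes, the level was 2867 ± 23.0 FPKM with Torin1 at 3 h and 2253 ± 7.39 FPKM in NC (SD, n = 3 each). Against IL-10 of the same hour, a second set of control libraries with a known hour, all 55 were higher, where 21.5% of all genes tested were.

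The rise covered every role. All 6 mitotic kinases, all 6 kinetochore and centromere genes tested and all 8 kinesins rose, as did 10 of 11 spindle proteins, 5 of 7 cyclins and other entry genes, all 4 genes of the chromosomal passenger complex and all 4 cytokinesis genes tested. The genes that did not pass were CDC20 (0.04 ± 0.04), CCNB1 (0.09 ± 0.05), FAM83D (0.09 ± 0.05) and CDCA3 (0.10 ± 0.05).

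Among the entry genes, CDC25C, a phosphatase that activates CDK1, had 18.8, 16.9 and 19.0 FPKM at 3 h and 15.6, 15.97 and 14.0 FPKM at 6 h, against 9.93, 10.56 and 10.9 FPKM in NC. It rose by 0.74 ± 0.06 at 3 h and by 0.49 ± 0.06 at 6 h (limma adjusted p = 3.11e-09 and 6.34e-07). CDK1, the kinase that starts mitosis, had 118, 109 and 119 FPKM at 3 h and 93.7, 96.6 and 94.9 FPKM at 6 h, against 94.8, 90.3 and 90.1 FPKM in NC. It rose by 0.33 ± 0.03 at 3 h, where no Torin1 library overlapped NC, and its difference at 6 h of 0.05 ± 0.03 did not pass. CCNB1, cyclin B1 and the partner of CDK1, had 148, 145 and 147 FPKM at 3 h and 124, 123 and 121 FPKM at 6 h, against 143, 135 and 135 FPKM in NC. It did not pass at 3 h and fell by 0.17 ± 0.05 at 6 h (limma adjusted p = 0.00401). CCNA2, the cyclin of S phase and G2, had 100.3, 97.5 and 102 FPKM at 3 h and 82.3, 92.2 and 86.1 FPKM at 6 h, against 86.4, 84.9 and 83.1 FPKM in NC. It rose by 0.23 ± 0.04 at 3 h, and its 6 h difference of 0.03 ± 0.04 did not pass.

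Of the mitotic kinases, PLK1, which drives centrosome maturation and mitotic entry, had 136, 145 and 143 FPKM at 3 h and 132, 133 and 135 FPKM at 6 h, against 105, 114 and 107 FPKM in NC. It rose at both hours, by 0.38 ± 0.03 and 0.29 ± 0.03, with no overlap with NC. AURKA had 115, 113 and 112 FPKM at 3 h and 84.9, 87.7 and 85.3 FPKM at 6 h, against 99.1, 99.9 and 98.9 FPKM in NC. It rose by 0.19 ± 0.04 at 3 h and was lower than NC at 6 h (-0.21 ± 0.04), so the kinase changed sides between the hours. NEK2, a kinase that splits centrosomes, had 23.0, 22.4 and 22.5 FPKM at 3 h and 26.8, 29.5 and 28.8 FPKM at 6 h, against 14.8, 15.5 and 14.7 FPKM in NC. It was the kinase with the largest rise at 6 h (0.88 ± 0.04, limma adjusted p = 1.21e-13), and 1 of 3 genes higher at 6 h than at 3 h. TTK, a kinase of the spindle checkpoint, had 28.2, 29.1 and 29.6 FPKM at 3 h and 21.9, 22.9 and 23.3 FPKM at 6 h, against 15.7, 14.0 and 15.0 FPKM in NC. Its rises were 0.92 ± 0.05 and 0.58 ± 0.05.

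CDC20 had 57.8, 59.3 and 59.7 FPKM at 3 h and 48.6, 47.9 and 48.9 FPKM at 6 h, against 57.7, 57.7 and 56.5 FPKM in NC. Its 3 h libraries lay just above NC without passing, and at 6 h it fell by 0.24 ± 0.04 (limma adjusted p = 6.42e-06). At the kinetochore, CENPE, a kinesin that brings chromosomes to the spindle equator, had 7.37, 15.1 and 10.2 FPKM at 3 h and 11.6, 7.39 and 9.77 FPKM at 6 h, against 4.45, 3.84 and 4.16 FPKM in NC. CENPF, a kinetochore protein that binds microtubules, had 18.1, 32.5 and 23.7 FPKM at 3 h and 29.6, 22.7 and 26.98 FPKM at 6 h, against 12.2, 10.7 and 11.1 FPKM in NC. Both stood above NC at both hours, but their 3 h libraries lay far apart, and the differences of CENPE (1.16 ± 0.23) and CENPF (1.02 ± 0.20) had wide standard errors. CKAP2L, a spindle protein also called radmis, had 22.8, 23.4 and 23.2 FPKM at 3 h and 16.1, 17.7 and 17.6 FPKM at 6 h, against 9.98, 10.5 and 10.3 FPKM in NC. Its rise of 1.10 ± 0.04 at 3 h rested on libraries that lay close together (limma adjusted p = 1.79e-15), and it stood at 0.69 ± 0.04 at 6 h. HMMR, a spindle-pole protein, had 36.3, 36.5 and 38.1 FPKM at 3 h and 36.8, 38.3 and 36.3 FPKM at 6 h, against 23.2, 21.7 and 22.7 FPKM in NC. It rose at both hours, by 0.69 ± 0.06 and 0.70 ± 0.06.

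TOP2A had 256, 256 and 259 FPKM at 3 h and 237, 242 and 245 FPKM at 6 h, against 186, 178 and 186 FPKM in NC. It rose by 0.48 ± 0.06 and 0.39 ± 0.06, with no overlap at either hour. MKI67, the Ki-67 protein that coats mitotic chromosomes, had 50.1, 56.7 and 52.9 FPKM at 3 h and 43.7, 43.0 and 44.3 FPKM at 6 h, against 42.8, 44.5 and 42.8 FPKM in NC. It rose at 3 h by 0.29 ± 0.06, and at 6 h its libraries overlapped NC (0.01 ± 0.06).

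At 6 h fewer of the genes stood above NC in HepG2. With Torin1 at 6 h, 29 of 55 rose and 6 fell, where 26.1% of all genes tested were higher and 33.8% lower, and the median was 0.15. Compared with IL-10 of the same hour, 33 were higher and 5 lower, where 28.7% and 30.3% of all genes tested were. The 6 that fell against NC were FAM83D (-0.26 ± 0.05), CDC20, AURKA, CCNB1, KIF2C (-0.14 ± 0.03) and ANLN (-0.13 ± 0.03). Between the hours, 3 of 55 were higher and 38 lower at 6 h than at 3 h, against 17.0% and 19.3% of all genes tested. The summed level was 2503 ± 40.7 FPKM at 6 h and 2867 ± 23.0 FPKM at 3 h (SD, n = 3 each). KIF18A fell by 0.53 ± 0.06, CENPA, the centromeric histone, by 0.47 ± 0.04 and KIF23, a motor of the central spindle, by 0.46 ± 0.04 at 6 h relative to 3 h. The 3 higher at 6 h were NEK2 (0.31 ± 0.04), CDC25B (0.13 ± 0.04) and CKAP5 (0.12 ± 0.03), and the call of CDC25B ended without Torin1 3 h replicate 1, where its difference was 0.07. It ended also without Torin1 6 h replicate 1 or 3, where the difference was 0.12.

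**Figure D2:**
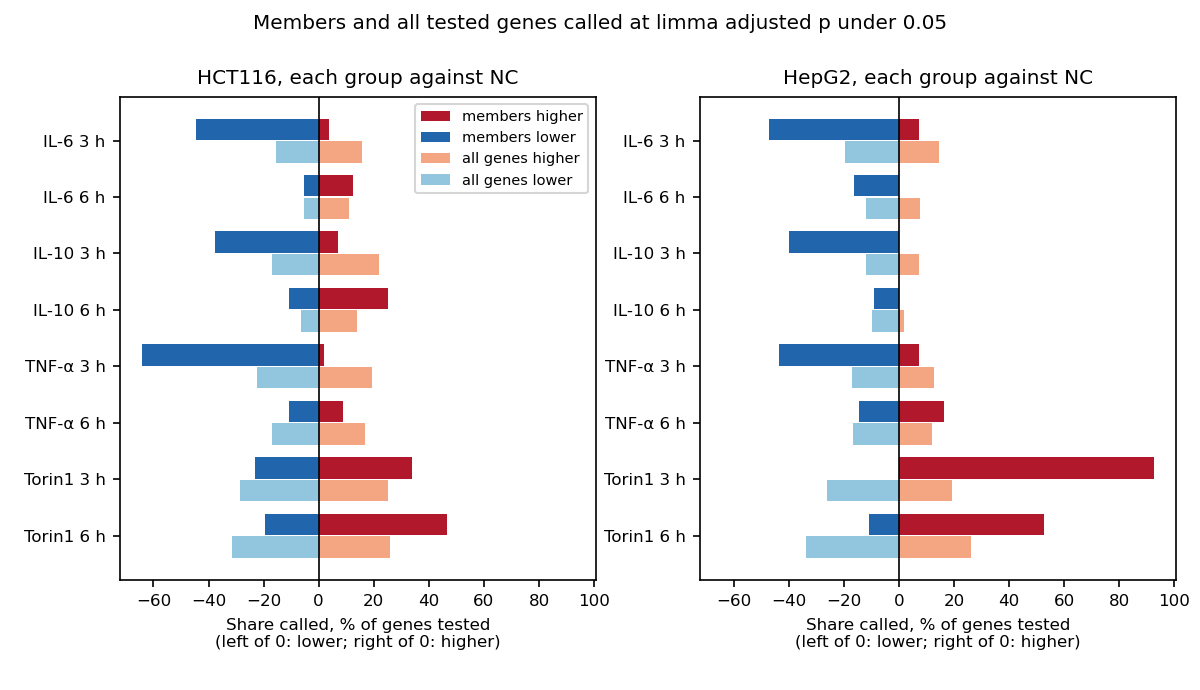
Share of the G2/M genes tested (dark bars) and of all genes tested (pale bars) called lower, left of 0, or higher, right of 0, in each agent group against NC of its line (% of genes, limma adjusted p below 0.05, n = 3 libraries per group). The bar of HepG2 Torin1 at 3 h stands for 51 of 55 genes, and that of HCT116 TNF-α at 3 h for 36 of 56 genes lower.

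In HCT116 the genes moved both ways with the same drug, and at 3 h the shares called against NC lay not far from those of all genes. With Torin1 at 3 h, 19 of 56 rose and 13 fell, where 25.1% of all 11395 genes tested were higher and 28.6% lower, and the median was 0.05 against 0.00 over all genes. With libraries scaled by total reads the split was 14 higher and 17 lower. At 6 h, 26 rose and 11 fell, where 25.8% were higher and 31.5% lower, and the median was 0.11. The summed level was 2361 ± 94.3 FPKM at 3 h and 2436 ± 70.1 FPKM at 6 h with Torin1, against 2338 ± 66.4 FPKM in NC (SD, n = 3 each), and the libraries of all 3 groups overlapped. Against IL-10 of the same hour, 32 were higher and 6 lower at 3 h, where 17.6% and 26.7% of all genes tested were, and 28 higher and 13 lower at 6 h, where 23.6% and 33.7% were. Of the roles at 6 h against NC, kinetochore and centromere genes had 4 higher and 0 lower of 7, spindle proteins 6 higher and 1 lower of 11, and checkpoint, cohesion and anaphase-promoting genes 1 higher and 3 lower of 6.

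The rises were led by CDC25C and HMMR. CDC25C had 6.94, 6.44 and 7.05 FPKM at 3 h and 7.62, 7.06 and 8.39 FPKM at 6 h, against 3.997, 3.62 and 4.54 FPKM in NC. It rose by 0.63 ± 0.10 and 0.78 ± 0.10 (limma adjusted p = 1.04e-05 and 5.43e-07). HMMR had 36.3, 30.96 and 38.5 FPKM at 3 h and 41.1, 38.0 and 44.2 FPKM at 6 h, against 26.3, 22.5 and 24.6 FPKM in NC. It rose by 0.50 ± 0.07 and 0.72 ± 0.07, with every treated library above NC. NEK2 had 22.2, 20.4 and 21.9 FPKM at 3 h and 23.9, 22.6 and 25.8 FPKM at 6 h, against 18.1, 15.6 and 17.5 FPKM in NC, and rose by 0.32 ± 0.05 and 0.48 ± 0.05. NUF2, a subunit of the NDC80 complex, rose by 0.35 ± 0.05 and 0.39 ± 0.05.

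The falls were led by FAM83D and SGO2 at 3 h and by SGO2 and CDC20 at 6 h. FAM83D, which brings casein kinase to the spindle, had 29.9, 25.3 and 26.9 FPKM at 3 h and 35.8, 33.5 and 32.9 FPKM at 6 h, against 41.1, 42.1 and 41.6 FPKM in NC. It fell by 0.59 ± 0.05 at 3 h (limma adjusted p = 1.88e-09) and was higher at 6 h than at 3 h by 0.31 ± 0.05. FAM83D was below NC at 3 h with every agent in HCT116, so its fall was not particular to Torin1. SGO2, a protector of centromeric cohesion, had 12.4, 8.66 and 10.8 FPKM at 3 h and 10.5, 9.91 and 11.8 FPKM at 6 h, against 16.6, 13.0 and 15.9 FPKM in NC. It fell by 0.48 ± 0.12 and 0.46 ± 0.12. With IL-10, SGO2 also fell at 3 h (-0.39), and at 6 h its difference did not pass (-0.12). G2E3, a ubiquitin ligase named for its G2/M expression, fell by 0.42 ± 0.04 at 3 h and 0.27 ± 0.04 at 6 h. CDC20 had 115, 118 and 118 FPKM at 3 h and 107, 115 and 115 FPKM at 6 h, against 146, 146 and 142 FPKM in NC. It fell by 0.30 ± 0.03 at 3 h and 0.36 ± 0.03 at 6 h, with all 6 treated libraries below NC. ANLN, a scaffold of the cleavage furrow, fell by 0.35 ± 0.05 at 6 h.

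CDK1 had 72.2, 66.9 and 73.3 FPKM at 3 h and 60.0, 60.2 and 61.5 FPKM at 6 h, against 75.7, 72.6 and 73.4 FPKM in NC. Its 3 h difference of -0.06 ± 0.04 did not pass, and at 6 h it fell by 0.28 ± 0.04 (limma adjusted p = 1.04e-05), with all 3 libraries below NC. CCNB1 had 188, 171 and 184 FPKM at 3 h and 176, 169 and 179 FPKM at 6 h, against 199, 189 and 189 FPKM in NC. It did not pass at 3 h (-0.09 ± 0.04) and fell by 0.14 ± 0.04 at 6 h. CCNA2 had 67.3, 64.6 and 72.0 FPKM at 3 h and 74.4, 70.9 and 75.5 FPKM at 6 h, against 68.1, 64.8 and 65.7 FPKM in NC. It did not pass at 3 h and rose by 0.15 ± 0.04 at 6 h against NC, the opposite side to its partner CDK1. PLK1 had 64.5, 65.6 and 64.1 FPKM at 3 h and 74.7, 72.2 and 76.9 FPKM at 6 h, against 65.9, 66.7 and 69.4 FPKM in NC. It did not pass at 3 h (-0.06 ± 0.04) and rose by 0.15 ± 0.04 at 6 h. AURKA had 40.2, 37.2 and 38.0 FPKM at 3 h and 41.9, 39.1 and 40.7 FPKM at 6 h, against 48.8, 45.9 and 47.0 FPKM in NC. It was below NC in all 6 treated libraries and fell by 0.29 ± 0.05 and 0.22 ± 0.05. At 3 h AURKA and CDC20 also fell with IL-6 and IL-10, as described further on. TOP2A had 73.0, 61.6 and 74.2 FPKM at 3 h and 64.1, 63.1 and 68.1 FPKM at 6 h, against 63.2, 54.9 and 61.5 FPKM in NC. It rose by 0.21 ± 0.06 at 3 h and its 6 h difference of 0.12 ± 0.06 did not pass. MKI67 had 54.7, 49.7 and 52.7 FPKM at 3 h and 51.0, 51.7 and 54.7 FPKM at 6 h, against 59.6, 55.9 and 57.6 FPKM in NC. Its differences of -0.14 at 3 h and -0.14 at 6 h passed with all libraries, but the 3 h call ended without NC replicate 1 (-0.12) or Torin1 3 h replicate 2 (-0.10) and the 6 h call without NC replicate 1 (-0.11) or Torin1 6 h replicate 1 (-0.12) or 2 (-0.13). Against IL-10 of the same hour, MKI67 stood at 0.19 and PLK1 at 0.22 at 3 h. At 6 h MKI67 also stood above IL-10, and CCNA2 stood below it. The sides of MKI67 at both hours, of PLK1 at 3 h and of CCNA2 at 6 h thus depended on the control.

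**Figure D3:**
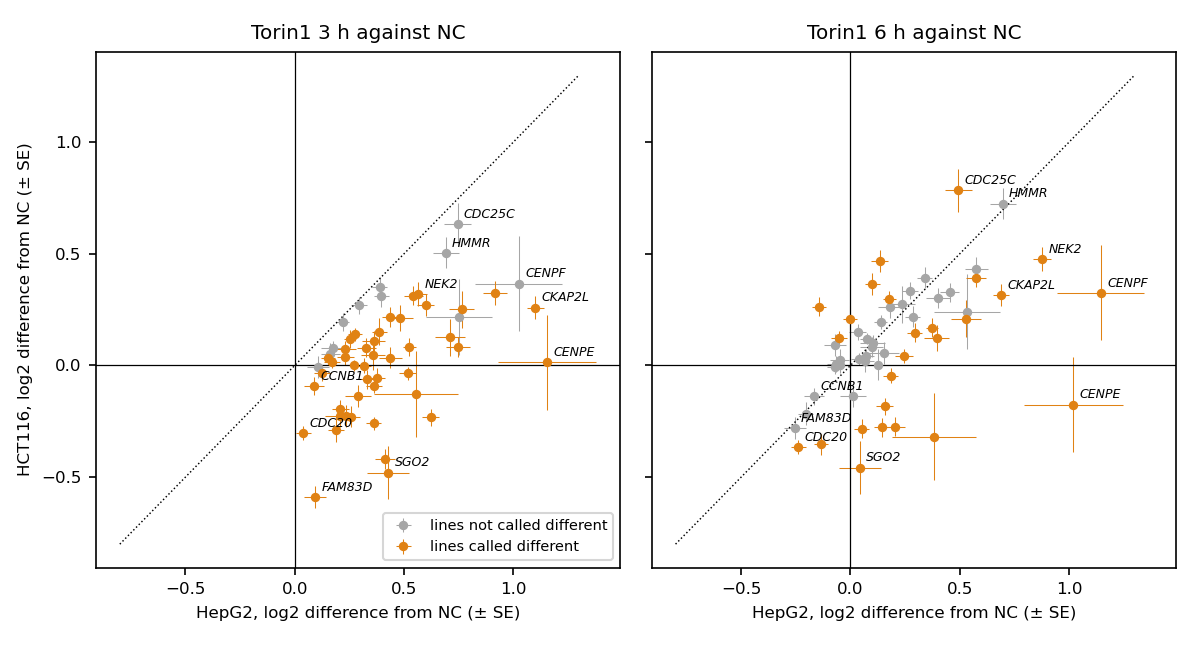
Log2 difference between Torin1 and NC of each of 55 G2/M genes in HCT116 (vertical axis) and HepG2 (horizontal axis) at 3 h and 6 h, with standard errors as bars, a dotted line of equal effect, and orange points where the effects differed at limma adjusted p below 0.05. All 55 points lie below the line at 3 h, 44 of them orange, and 26 are orange at 6 h.

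The effect of Torin1 at 3 h differed between the lines for most of the genes. In a fit of both lines together, the effect in HCT116 was lower than in HepG2 for 44 of 55 genes and higher for 0, where 19.5% of all 9683 genes tested were lower and 20.4% higher, and all 55 differences lay below 0. limma-voom called 38 lower and 0 higher. Wide gaps with small standard errors were those of KIF23 (-0.85 ± 0.05), CKAP2L (-0.84 ± 0.06), G2E3 (-0.83 ± 0.06) and FAM83D (-0.68 ± 0.07). CENPE (-1.14 ± 0.32) and SGO2 (-0.91 ± 0.16) had larger values with wider errors, and both belong to 6 genes that scatter together and are described further on. For 11 genes the lines were not called different, among them CDC25C (-0.11 ± 0.12), HMMR (-0.19 ± 0.09), NUF2 (-0.04 ± 0.06) and CCNB2 (-0.02 ± 0.05). Among the 8 genes followed throughout, CDK1 (-0.39 ± 0.06), PLK1 (-0.43 ± 0.06), AURKA (-0.48 ± 0.06), CDC20 (-0.34 ± 0.05), MKI67 (-0.43 ± 0.08) and CCNA2 (-0.20 ± 0.05) were called different. The calls of CCNB1 (-0.18 ± 0.06) and TOP2A (-0.27 ± 0.08) ended without HCT116 Torin1 3 h replicate 2 (-0.14 and -0.19), and that of CCNB1 also without HCT116 NC replicate 1 (-0.16).

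At 6 h fewer of the genes differed between the lines. The effect was lower in HCT116 for 19 genes and higher for 7, where 23.7% and 26.4% of all genes tested were called in these directions, and the median gap was -0.05. Lower in HCT116 were BUB1B (-0.42 ± 0.06) and CDK1 (-0.33 ± 0.06), and also CENPE (-1.195 ± 0.32), CENPF (-0.82 ± 0.30) and SGO2 (-0.50 ± 0.16). With the mean of 10 co-varying genes as a covariate, described further on, the gap of CENPE was -0.28, and those of CENPF (0.02) and SGO2 (-0.11) lost their calls (limma adjusted p = 0.848 and 0.178). KIF14 (-0.05) and KIF20B (0.09), also called lower without it, lost theirs too (limma adjusted p = 0.459 and 0.404). Leaving out the 6 genes that scatter together, 14 of 49 were lower and 7 higher. With the covariate, 12 of all 55 were lower and 7 higher. Higher in HCT116 were KIF2C, the kinesin that depolymerizes microtubules (0.41 ± 0.05), CENPA (0.34 ± 0.06) and CDC25C (0.29 ± 0.12).

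TNF-α lowered most of the genes in HCT116 at 3 h. Of 56 tested, 36 fell and 1 rose against NC, where 22.4% of all genes tested were lower and 19.2% higher. The median was -0.22, and the summed level was 2052 ± 23.8 FPKM with TNF-α at 3 h and 2338 ± 66.4 FPKM in NC (SD, n = 3 each). By role, 7 of 8 kinesins, 5 of 6 mitotic kinases, 6 of 11 spindle proteins, 3 of 4 passenger complex genes and all 3 genes of chromosome structure fell. Against IL-10 of the same hour, 29 were lower and 3 higher, where 22.2% and 14.3% of all genes tested were. At 6 h fewer genes differed from NC, with 5 higher and 6 lower, where 16.7% and 17.1% were, and with libraries scaled by total reads the 6 h split was 5 higher and 15 lower. At 6 h relative to 3 h, 39 genes were higher and 1 lower, 37.3% of all genes tested being called (20.2% higher and 17.0% lower). At 6 h, 9 were higher and 21 lower than with IL-10 of the same hour, where 17.7% and 24.6% of all genes tested were.

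PSRC1, a spindle protein, had 8.26, 8.32 and 7.55 FPKM at 3 h and 10.9, 10.7 and 10.8 FPKM at 6 h, against 13.4, 14.2 and 13.7 FPKM in NC. It fell by 0.71 ± 0.05 at 3 h (limma adjusted p = 1.94e-10) and by 0.32 ± 0.05 at 6 h. KIF18A had 14.2, 11.8 and 13.7 FPKM at 3 h and 18.8, 18.1 and 15.7 FPKM at 6 h, against 23.9, 19.6 and 22.6 FPKM in NC. It fell by 0.69 ± 0.08 and 0.31 ± 0.08 (limma adjusted p = 7.4e-07 and 0.00555). FAM83D had 26.3, 25.2 and 25.7 FPKM at 3 h and 38.6, 40.2 and 37.2 FPKM at 6 h, against 41.1, 42.1 and 41.6 FPKM in NC. It fell by 0.67 ± 0.05 at 3 h and was higher at 6 h than at 3 h by 0.57 ± 0.05. SGO2 fell by 0.63 ± 0.12 at 3 h, and CDCA8, the borealin subunit of the chromosomal passenger complex, was higher at 6 h than at 3 h by 0.58 ± 0.03. The single riser at 3 h was UBE2C, the ubiquitin-conjugating enzyme of the anaphase-promoting complex (0.11 ± 0.03), and at 6 h it stood at 0.25 ± 0.03. CDC25B, the phosphatase that starts CDK1 activation at centrosomes, had 27.2, 27.1 and 26.96 FPKM at 3 h and 22.8, 23.6 and 23.8 FPKM at 6 h, against 34.7, 33.6 and 36.2 FPKM in NC. It fell further with time, by 0.35 ± 0.04 at 3 h and 0.56 ± 0.04 at 6 h, the one gene lower at 6 h than at 3 h.

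Of the 8 genes followed throughout, AURKA had 35.5, 32.5 and 33.9 FPKM at 3 h and 46.1, 44.3 and 43.4 FPKM at 6 h, against 48.8, 45.9 and 47.0 FPKM in NC. It fell by 0.46 ± 0.05 at 3 h, and at 6 h its difference did not pass. CCNA2 had 53.2, 52.0 and 54.3 FPKM at 3 h and 63.2, 62.3 and 59.2 FPKM at 6 h, against 68.1, 64.8 and 65.7 FPKM in NC. It fell by 0.31 ± 0.04 at 3 h, and its 6 h call at -0.10 ended without NC replicate 1 (-0.08) or 3 (-0.11) or TNF-α 6 h replicate 3 (-0.08). PLK1 had 56.1, 55.9 and 57.2 FPKM at 3 h and 69.5, 73.3 and 71.7 FPKM at 6 h, against 65.9, 66.7 and 69.4 FPKM in NC. It fell by 0.25 ± 0.04 at 3 h, and every 6 h library stood above every 3 h library. CDC20 had 126, 128 and 132 FPKM at 3 h and 144, 147 and 143 FPKM at 6 h, against 146, 146 and 142 FPKM in NC. It fell by 0.17 ± 0.03 at 3 h and lay among the NC libraries at 6 h. CCNB1 had 171, 175 and 179 FPKM at 3 h and 198, 193 and 189.7 FPKM at 6 h, against 199, 189 and 189 FPKM in NC. It fell by 0.14 ± 0.04 at 3 h and did not pass at 6 h. CDK1 had 68.4, 68.1 and 71.8 FPKM at 3 h and 74.1, 76.0 and 70.3 FPKM at 6 h, against 75.7, 72.6 and 73.4 FPKM in NC, and passed at neither hour. TOP2A had 56.6, 50.8 and 54.2 FPKM at 3 h and 57.8, 56.4 and 52.5 FPKM at 6 h, against 63.2, 54.9 and 61.5 FPKM in NC. MKI67 had 54.6, 49.7 and 52.1 FPKM at 3 h and 61.9, 64.1 and 60.7 FPKM at 6 h, against 59.6, 55.9 and 57.6 FPKM in NC. Both passed narrowly at 3 h, at -0.15 each, and both calls ended without NC replicate 1 or 3 or TNF-α 3 h replicate 2 or 3, where the differences were -0.11 to -0.15. Compared with IL-10 at 3 h, MKI67 was higher with TNF-α (0.18), the side opposite to NC. PLK1 also changed side with IL-10 as the control. The TNF-α libraries of PLK1 and CDC20 at 3 h overlapped the IL-10 libraries of that hour.

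In HepG2, fewer of the genes were called below NC with TNF-α than in HCT116. At 3 h, 24 of 55 fell and 4 rose, where 16.9% of all genes tested were lower and 12.8% higher, and the median was -0.10. Compared with IL-10 of the same hour, 1 was lower and 7 higher, where 6.06% and 10.0% of all genes tested were. NC has no hour in the labels, so falls shared with IL-10 cannot be told apart from a difference in hour or handling. At 6 h, 9 were higher and 8 lower than NC, where 11.9% and 16.8% of all genes tested were, and 7 higher and 7 lower than IL-10 of the same hour, where 18.9% and 15.9% were. Without NC replicate 2 or 3 the 6 h count of 17 was 11, and limma-voom called 7 higher and 19 lower. The falls at 3 h were led by PSRC1 (-0.42 ± 0.07), SGO2 (-0.38 ± 0.10) and NEK2 (-0.34 ± 0.04), and the 4 rises included ECT2, an exchange factor of cytokinesis (0.31 ± 0.05), CKAP2L (0.24 ± 0.04) and KIF23 (0.20 ± 0.04). At 6 h relative to 3 h, 21 were higher and 1 lower, against 12.0% and 13.4% of all genes tested. That count of 22 was 11 without TNF-α 3 h replicate 1, 10 without TNF-α 3 h replicate 2 and 11 without TNF-α 6 h replicate 2.

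AURKA had 79.1, 82.98 and 79.4 FPKM at 3 h and 87.9, 91.1 and 85.2 FPKM at 6 h, against 99.1, 99.9 and 98.9 FPKM in NC. It fell by 0.30 ± 0.04 and 0.17 ± 0.04, with all 6 treated libraries below NC. PLK1 had 99.5, 104 and 98.2 FPKM at 3 h and 101, 106 and 102 FPKM at 6 h, against 105, 114 and 107 FPKM in NC. CDC20 had 51.4, 55.9 and 51.7 FPKM at 3 h and 50.8, 51.8 and 51.1 FPKM at 6 h, against 57.7, 57.7 and 56.5 FPKM in NC. Both passed narrowly at 3 h, PLK1 at -0.11 and CDC20 at -0.11, and both calls ended without NC replicate 2 or TNF-α 3 h replicate 1 or 3 (-0.07 to -0.11), that of CDC20 also without NC replicate 1 (-0.11). TOP2A had 161, 152 and 175 FPKM at 3 h and 168, 180.3 and 169.7 FPKM at 6 h, against 186, 178 and 186 FPKM in NC. Its 3 h call at -0.18 ended without NC replicate 1 or 3 or TNF-α 3 h replicate 1 or 2 (-0.13 to -0.17). CCNB1 had 129.7, 136 and 119 FPKM at 3 h and 136, 132 and 131 FPKM at 6 h, against 143, 135 and 135 FPKM in NC, and passed at neither hour. CDK1 had 87.6, 87.9 and 90.04 FPKM at 3 h and 88.1, 87.4 and 88.2 FPKM at 6 h, against 94.8, 90.3 and 90.1 FPKM in NC. CCNA2 had 79.1, 83.2 and 83.8 FPKM at 3 h and 80.9, 80.6 and 82.5 FPKM at 6 h, against 86.4, 84.9 and 83.1 FPKM in NC. MKI67 had 39.3, 39.9 and 44.0 FPKM at 3 h and 44.0, 49.4 and 47.3 FPKM at 6 h, against 42.8, 44.5 and 42.8 FPKM in NC. None of these last 3 passed against NC at either hour.

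**Figure D4:**
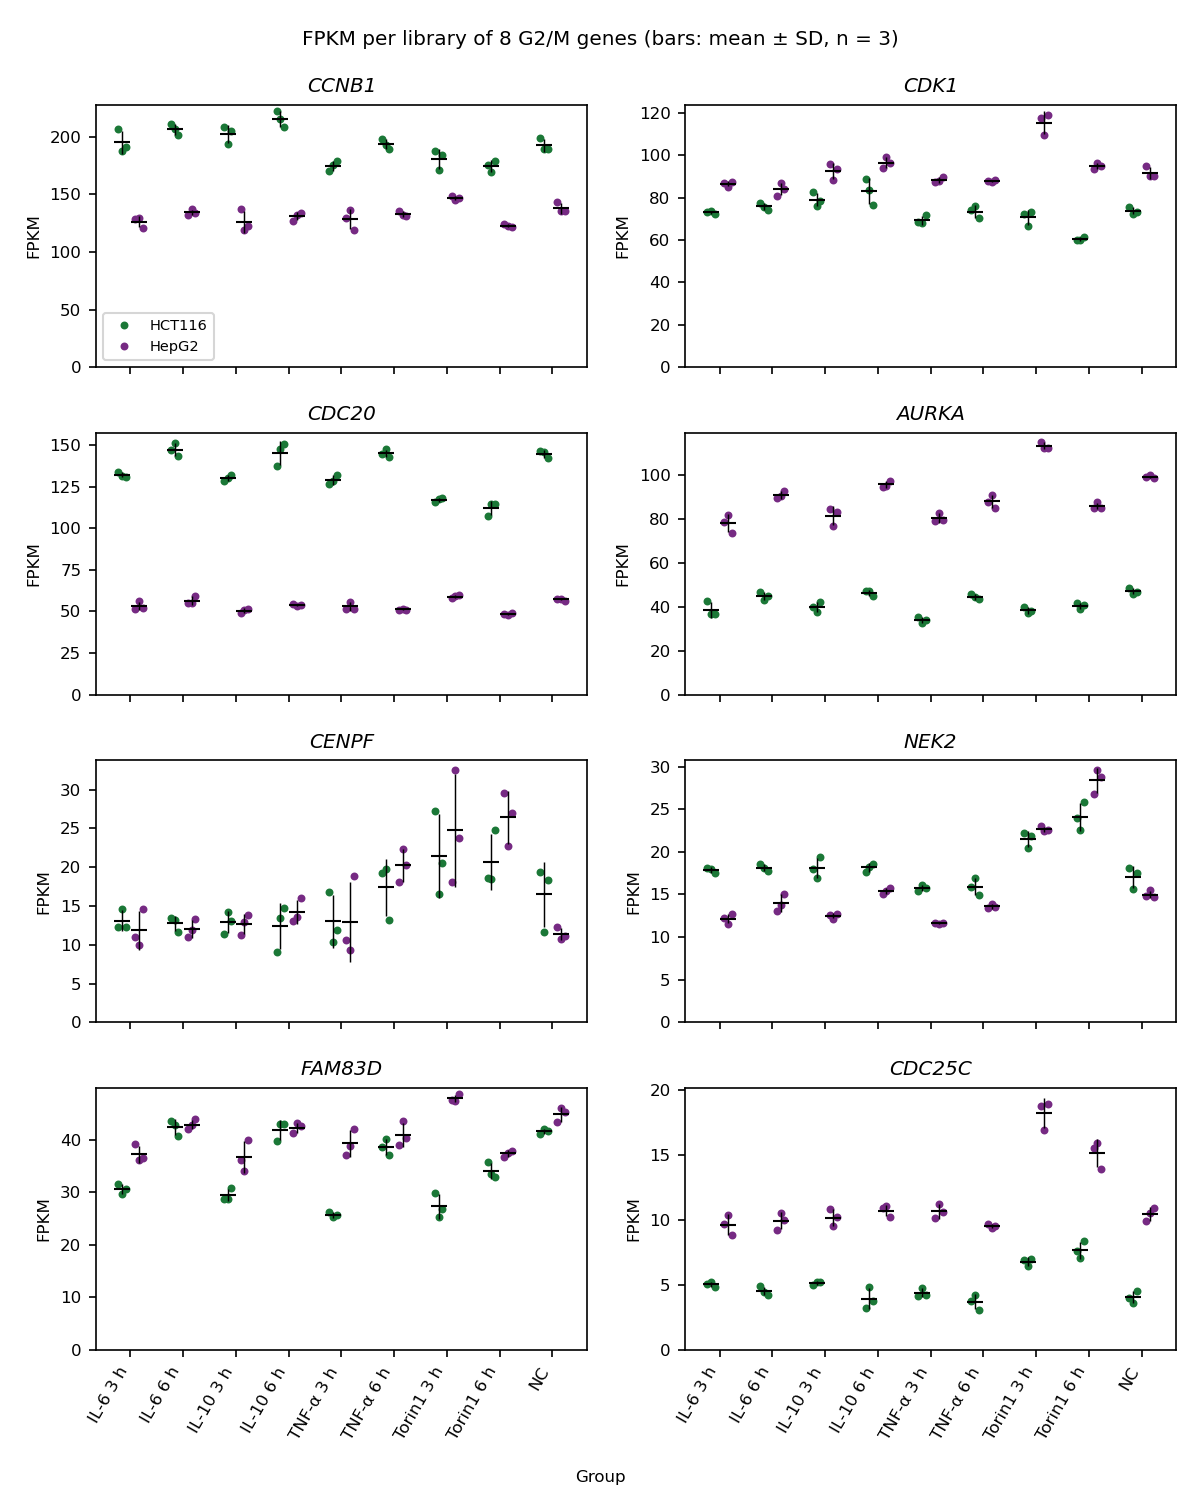
FPKM in each of 27 HCT116 libraries (green) and 27 HepG2 libraries (purple) of 8 G2/M genes, 1 panel per gene, with agents and hours left of NC and bars for the mean ± SD (n = 3). The NEK2 points of HepG2 are highest with Torin1, averaging 22.7 FPKM at 3 h and 28.4 at 6 h, against 15.0 in NC, and the FAM83D points of HCT116 are low at 3 h with every agent.

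The effect of TNF-α at 3 h differed between the lines for 22 genes, lower in HCT116 for 20 and higher for 2, where 12.2% and 10.7% of all genes tested were. KIF18A (-0.52 ± 0.10), KIF23 (-0.49 ± 0.05), FAM83D (-0.48 ± 0.07) and CDC25B (-0.40 ± 0.06) led the first, and NEK2 (0.23 ± 0.07) and SGO1 (0.19 ± 0.06) were the 2 that were higher. At 6 h, 2 were lower and 5 higher, where 6.35% and 10.4% of all genes tested were. The 2 were CDC25B (-0.58 ± 0.06) and KIF18A (-0.49 ± 0.10). With libraries scaled by total reads the 6 h split was 4 lower and 3 higher, and limma-voom called 2 lower and 9 higher.

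With IL-6 and IL-10, part of the genes lay below NC by small amounts at 3 h in both lines. In HCT116 at 3 h, IL-6 cells had 25 of 56 genes lower and 2 higher, where 15.6% and 15.9% of all genes tested were. IL-10 cells had 21 lower and 4 higher, where 16.9% and 21.8% were. At 6 h, IL-6 cells had 3 lower and 7 higher, where 5.45% and 11.1% were, and IL-10 cells had 6 lower and 14 higher, where 6.49% and 14.0% were. At 6 h relative to 3 h, 28 genes were higher and 0 lower with IL-6, where 11.4% and 6.95% of all genes tested were, and limma-voom called 29 higher and 0 lower. With IL-10, 21 were higher and 1 lower at 6 h than at 3 h, where 11.3% and 8.71% were. The 6 h counts against NC moved with single libraries. The IL-10 count of 20 was 12 without IL-10 6 h replicate 1. The IL-6 count of 10 was 4 without IL-6 6 h replicate 1, 2 without IL-6 6 h replicate 2, 4 without NC replicate 2 and 6 without NC replicate 3. With libraries scaled by total reads the 6 h splits were 1 higher and 6 lower for IL-6 and 9 higher and 8 lower for IL-10.

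None of the 56 genes was called different between the 2 cytokines in HCT116. Of IL-6 against IL-10 at 3 h limma called 0 higher and 0 lower, with 9 at an unadjusted p below 0.05, where 0.167% of all genes tested were higher and 0.0702% lower. At 6 h it called 0 higher and 0 lower, with 4 at an unadjusted p below 0.05, where 0.0965% of all genes tested were higher and 0.0176% lower. limma-voom was not run for these comparisons. Since NC has no hour in the labels, what IL-6 and IL-10 share against NC cannot be told apart from a difference in hour or handling.

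FAM83D and PSRC1 were among the largest falls at 3 h in HCT116 with both cytokines. FAM83D had 31.7, 29.7 and 30.7 FPKM with IL-6 at 3 h and 43.6, 42.9 and 40.8 FPKM at 6 h, 28.8, 28.8 and 30.9 FPKM with IL-10 at 3 h and 39.7, 43.0 and 43.0 FPKM at 6 h, against 41.1, 42.1 and 41.6 FPKM in NC. Its falls at 3 h were 0.43 ± 0.05 with IL-6 and 0.48 ± 0.05 with IL-10 (limma adjusted p = 1.46e-06 and 1.94e-07), and at 6 h its libraries stood within or beside the NC range. PSRC1 fell by 0.40 ± 0.05 with IL-6 and 0.43 ± 0.05 with IL-10 at 3 h. INCENP, the scaffold of the chromosomal passenger complex, fell by 0.45 ± 0.05 with IL-10 at 3 h and by 0.21 ± 0.05 at 6 h. NUF2 rose with IL-10 at 3 h by 0.20 ± 0.05, and NDC80 at 6 h by 0.20 ± 0.04.

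Of the 8 genes followed throughout, PLK1 had 59.5, 56.1 and 55.1 FPKM with IL-6 at 3 h and 67.8, 64.4 and 64.4 FPKM at 6 h, 51.1, 56.4 and 59.2 FPKM with IL-10 at 3 h and 63.1, 68.0 and 67.9 FPKM at 6 h, against 65.9, 66.7 and 69.4 FPKM in NC. It fell by 0.24 ± 0.04 with IL-6 and 0.27 ± 0.04 with IL-10 at 3 h and passed with neither at 6 h. AURKA had 42.6, 36.7 and 36.6 FPKM with IL-6 at 3 h and 46.8, 43.1 and 45.1 FPKM at 6 h, 40.0, 37.5 and 42.3 FPKM with IL-10 at 3 h and 47.3, 47.1 and 44.9 FPKM at 6 h, against 48.8, 45.9 and 47.0 FPKM in NC. It fell by 0.29 ± 0.05 and 0.24 ± 0.05 at 3 h and passed with neither at 6 h. CDC20 had 134, 131 and 131 FPKM with IL-6 at 3 h and 147, 151 and 144 FPKM at 6 h, 128, 130.0 and 132 FPKM with IL-10 at 3 h and 137, 148 and 150.5 FPKM at 6 h, against 146, 146 and 142 FPKM in NC. It fell by 0.13 ± 0.03 and 0.15 ± 0.03 at 3 h, where all 6 cytokine libraries lay below NC. MKI67 had 47.2, 51.0 and 46.6 FPKM with IL-6 at 3 h and 53.5, 52.6 and 49.7 FPKM at 6 h, 42.5, 47.7 and 47.4 FPKM with IL-10 at 3 h and 46.2, 49.2 and 50.5 FPKM at 6 h, against 59.6, 55.9 and 57.6 FPKM in NC. It fell by 0.25 ± 0.05 with IL-6 and 0.33 ± 0.05 with IL-10 at 3 h and by 0.24 ± 0.05 with IL-10 at 6 h, and its IL-6 6 h call at -0.15 ended without any single one of the 3 IL-6 libraries or without NC replicate 1 or 3 (-0.12 to -0.17).

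CCNA2 had 65.7, 61.5 and 62.4 FPKM with IL-6 at 3 h and 74.0, 73.5 and 73.3 FPKM at 6 h, 65.0, 62.7 and 66.9 FPKM with IL-10 at 3 h and 76.7, 76.9 and 74.4 FPKM at 6 h, against 68.1, 64.8 and 65.7 FPKM in NC. It rose at 6 h by 0.15 ± 0.04 with IL-6 and 0.20 ± 0.04 with IL-10. CCNB1 had 207, 188 and 191 FPKM with IL-6 at 3 h and 211, 207 and 201 FPKM at 6 h, 208, 194 and 205 FPKM with IL-10 at 3 h and 222, 216 and 209 FPKM at 6 h, against 199, 189 and 189 FPKM in NC. It rose with IL-10 at 6 h alone of these 4 groups (0.16 ± 0.04). CDK1 had 73.4, 73.7 and 72.2 FPKM with IL-6 at 3 h and 77.6, 75.7 and 74.4 FPKM at 6 h, 82.6, 76.3 and 78.7 FPKM with IL-10 at 3 h and 89.0, 83.7 and 76.8 FPKM at 6 h, against 75.7, 72.6 and 73.4 FPKM in NC. It passed with IL-10 at 6 h (0.17 ± 0.04), and not without IL-10 6 h replicate 1 (0.12). TOP2A had 58.6, 59.9 and 57.8 FPKM with IL-6 at 3 h and 60.6, 61.5 and 59.3 FPKM at 6 h, 64.1, 61.9 and 60.5 FPKM with IL-10 at 3 h and 62.5, 62.1 and 61.8 FPKM at 6 h, against 63.2, 54.9 and 61.5 FPKM in NC. It passed in none of the 4 groups.

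In HepG2 at 3 h, IL-6 cells had 26 of 55 genes lower and 4 higher, where 19.5% and 14.5% of all genes tested were. IL-10 cells had 22 lower and 0 higher, where 11.9% and 7.17% were. For IL-10 limma-voom called 30 lower and 0 higher. Here too, what IL-6 and IL-10 share against NC cannot be told apart from a difference in hour or handling. At 6 h, IL-6 cells had 9 lower and 0 higher, where 11.8% and 7.59% were, and IL-10 cells had 5 lower and 0 higher, where 9.80% and 1.88% were. limma-voom called 18 lower for IL-6 and 7 lower for IL-10, with 0 higher in each. The IL-6 6 h count of 9 was 2 without IL-6 6 h replicate 1 and 5 without NC replicate 3. With IL-10, the 6 h count of 5 was 2, 3 and 2 without IL-10 6 h replicates 1, 2 and 3, and 3 and 1 without NC replicates 1 and 2. Against IL-10 of the same hour, IL-6 cells had 3 of 55 higher and 2 lower at 3 h, where 12.0% and 10.9% of all genes tested were, and 1 higher and 10 lower at 6 h, where 14.4% and 9.28% were. At 6 h relative to 3 h, IL-6 cells had 9 higher and 5 lower, where 11.3% and 12.2% were. IL-10 cells had 16 higher and 2 lower, where 6.43% and 9.57% were, and that count of 18 was 10 without IL-10 3 h replicate 2 and 11 without IL-10 6 h replicate 3. With libraries scaled by total reads the IL-10 splits were 1 higher and 1 lower at 6 h against NC and 26 higher and 0 lower at 6 h relative to 3 h.

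Of the 55 genes in HepG2, AURKA had the largest fall with IL-6 at 3 h and FAM83D with IL-10 at 3 h. AURKA had 78.5, 81.9 and 73.8 FPKM with IL-6 at 3 h and 89.4, 90.5 and 92.9 FPKM at 6 h, 84.7, 76.9 and 83.3 FPKM with IL-10 at 3 h and 94.8, 95.2 and 97.5 FPKM at 6 h, against 99.1, 99.9 and 98.9 FPKM in NC. It fell by 0.34 ± 0.04 with IL-6 and 0.28 ± 0.04 with IL-10 at 3 h (limma adjusted p = 1.82e-07 and 1.03e-05), and its IL-6 6 h call at -0.13 ended without IL-6 6 h replicate 1 (-0.11) or NC replicate 2 (-0.12). NEK2 fell by 0.28 ± 0.04 with IL-6 and 0.25 ± 0.04 with IL-10 at 3 h. FAM83D fell by 0.28 ± 0.05 with IL-10 at 3 h. TPX2, which activates AURKA on the spindle, fell at 6 h by 0.15 ± 0.03 with IL-6 and 0.19 ± 0.03 with IL-10. KIF23 rose with IL-6 at 3 h by 0.18 ± 0.04.

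CDC20 had 51.5, 56.2 and 52.0 FPKM with IL-6 at 3 h and 54.8, 54.9 and 59.4 FPKM at 6 h, 48.8, 50.8 and 51.7 FPKM with IL-10 at 3 h and 54.7, 53.5 and 53.6 FPKM at 6 h, against 57.7, 57.7 and 56.5 FPKM in NC. It fell by 0.18 ± 0.04 with IL-10 at 3 h, and its IL-6 3 h call at -0.10 ended without IL-6 3 h replicate 1 or 3 or NC replicate 1 or 2 (-0.08 to -0.10). PLK1 had 99.4, 106 and 99.0 FPKM with IL-6 at 3 h and 106, 108 and 111 FPKM at 6 h, 98.1, 98.7 and 102 FPKM with IL-10 at 3 h and 106, 103 and 107 FPKM at 6 h, against 105, 114 and 107 FPKM in NC. Its 3 h calls, -0.10 with IL-6 and -0.13 with IL-10, ended without NC replicate 2 (-0.06 and -0.09) and without replicate 1 of the same cytokine group (-0.08 and -0.12). That of IL-6 ended also without IL-6 3 h replicate 3 (-0.08) and that of IL-10 without IL-10 3 h replicate 2 (-0.12). CCNB1 had 129, 129.7 and 121 FPKM with IL-6 at 3 h and 132, 137 and 134 FPKM at 6 h, 137, 119 and 123 FPKM with IL-10 at 3 h and 127, 133 and 133 FPKM at 6 h, against 143, 135 and 135 FPKM in NC. Its IL-6 3 h call at -0.13 ended without IL-6 3 h replicate 3 or any single NC library (-0.09 to -0.14). CDK1 had 87.0, 85.3 and 87.5 FPKM with IL-6 at 3 h and 81.1, 86.8 and 84.2 FPKM at 6 h, 96.0, 88.3 and 93.6 FPKM with IL-10 at 3 h and 94.0, 99.2 and 96.5 FPKM at 6 h, against 94.8, 90.3 and 90.1 FPKM in NC. Its IL-6 6 h call at -0.13 ended without IL-6 6 h replicate 1 or NC replicate 1 (-0.10 in each).

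CCNA2 had 79.8, 82.9 and 82.7 FPKM with IL-6 at 3 h and 80.9, 85.8 and 87.5 FPKM at 6 h, 85.8, 77.7 and 80.0 FPKM with IL-10 at 3 h and 81.5, 84.8 and 84.7 FPKM at 6 h, against 86.4, 84.9 and 83.1 FPKM in NC. It passed in none of the 4 groups. TOP2A had 165, 155 and 182 FPKM with IL-6 at 3 h and 157, 172 and 184 FPKM at 6 h, 177, 165 and 177 FPKM with IL-10 at 3 h and 186, 193 and 197 FPKM at 6 h, against 186, 178 and 186 FPKM in NC. MKI67 had 40.5, 41.8 and 48.02 FPKM with IL-6 at 3 h and 39.9, 41.0 and 41.8 FPKM at 6 h, 37.2, 42.4 and 41.5 FPKM with IL-10 at 3 h and 42.1, 41.2 and 43.0 FPKM at 6 h, against 42.8, 44.5 and 42.8 FPKM in NC. TOP2A and MKI67 likewise passed in none of these groups.

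A set of 6 genes needs a further value beside it, since its members scatter together between libraries of the same group. CENPE, CENPF, KIF14, KIF20B, ASPM and SGO2 encode long proteins of the kinetochore, the spindle and cohesion. Their mean deviation from the group mean followed that of 10 genes outside the list, among them AKAP9, GOLGA4 and TPR, with Pearson's r of 0.991 over 27 HCT116 libraries and 0.990 over 27 HepG2 libraries. The 10 were chosen after their values were seen. Each correlated by at least 0.95 in both lines with the mean deviation of CENPE, CENPF, KIF20B and ASPM. The 6 were set apart by a correlation of at least 0.9 with the same mean. The high r was thus built into the choice, and genes of one library share its depth and preparation, so r is a description. Transcripts of the 6 had a median of 37.7% A and a median length of 8705 bases, those of the 10 genes 36.3% and 9878 bases, and those of 50 other G2/M genes 29.8% and 3382 bases, against 25.9% and 3976 bases over all genes tested that have a sequence.

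**Figure D5:**
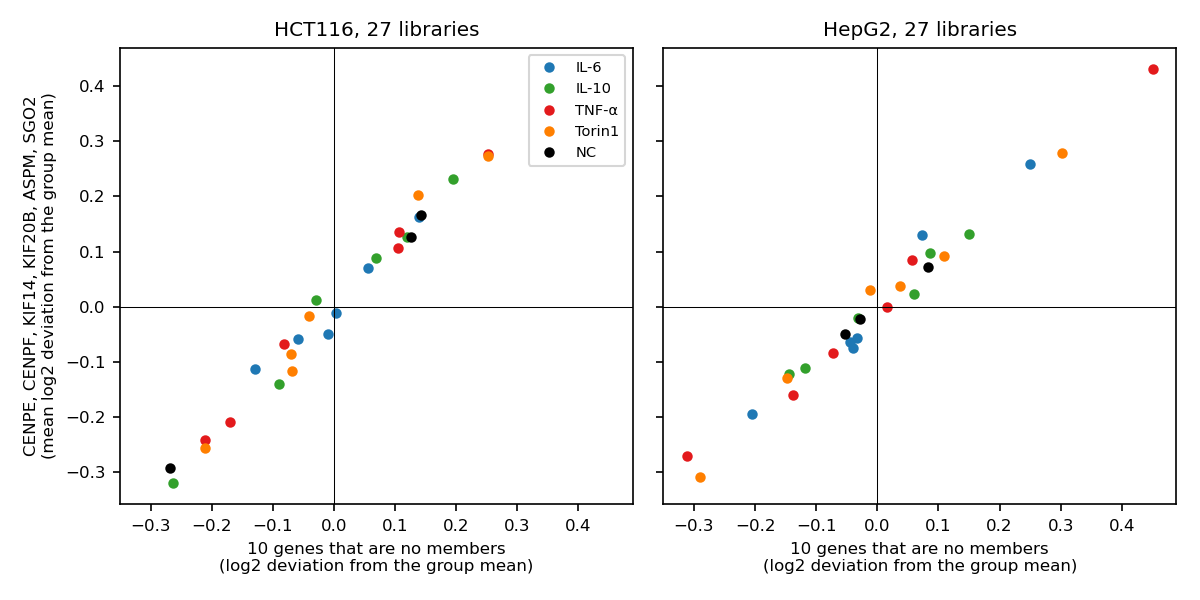
Mean log2 deviation from the group mean of 6 G2/M genes (vertical axis) against that of 10 genes that are no members (horizontal axis), 1 point per library, for 27 libraries of HCT116 (left) and 27 of HepG2 (right). The points lie along a line in both, and the deviations of the 6 genes span -0.32 to 0.28 in HCT116 and -0.31 to 0.43 in HepG2.

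The 10 genes moved with several of the comparisons above. Their median difference from NC was 0.63 in HepG2 with TNF-α at 6 h, where all 10 were higher, 0.38 with Torin1 at 3 h, where 5 were, and 0.47 with Torin1 at 6 h, where 7 were. In a fit with their mean as a covariate, added after the data were seen, the HepG2 TNF-α 6 h differences of CENPE, CENPF and KIF20B were 0.04, -0.03 and -0.19, against 0.94, 0.78 and 0.57 without it. The TNF-α 6 h count in HepG2 was then 3 higher and 5 lower, and that of TNF-α at 6 h relative to 3 h was 9, against 22. KIF20B in HepG2 with TNF-α at 6 h also lost its call without any single NC library, or without TNF-α 6 h replicate 2 or 3 (0.54 to 0.60). For Torin1 at 3 h in HepG2 the count with the covariate was 51 higher and 0 lower, with CENPE at 0.61 and CENPF at 0.54, and KIF20B at 0.09 no longer passed. For Torin1 at 6 h it was 24 higher and 8 lower, with CENPE at 0.29 and CENPF at 0.49. Leaving the 6 genes out, 45 of 49 rose and 0 fell with Torin1 at 3 h in HepG2. Since the 10 genes were chosen to follow members of this set, the covariate would also shrink a response that they share. The part of the scatter in the differences of the 6 genes was not tested further.

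Regulators of G2 and of mitotic entry were read from a list of 30 genes. With Torin1 in HepG2, 8 rose and 9 fell at 3 h, where 19.4% of all genes tested were higher and 26.1% lower, and 4 rose and 17 fell at 6 h, where 26.1% and 33.8% were. With Torin1 in HCT116, 10 rose and 12 fell at 3 h, where 25.1% and 28.6% of all genes tested were, and 9 rose and 11 fell at 6 h, where 25.8% and 31.5% were. At 3 h in HepG2 and at both hours in HCT116 the list as a whole lay not far from these shares. WEE1, the kinase that holds CDK1 inactive, had 61.8, 62.7 and 59.4 FPKM at 3 h and 36.7, 39.1 and 39.5 FPKM at 6 h, against 25.5, 27.3 and 25.3 FPKM in NC in HepG2. It rose by 1.21 ± 0.06 at 3 h and 0.55 ± 0.06 at 6 h, and in HCT116 by 0.64 ± 0.04 and 0.34 ± 0.04. CDC25A, the phosphatase of G1/S and of early mitotic entry, fell with Torin1 by 0.63 ± 0.04 and 0.78 ± 0.04 in HepG2 and by 0.94 ± 0.04 and 0.72 ± 0.04 in HCT116. MYBL2, the gene of B-MYB, fell by 0.21 ± 0.05 and 0.52 ± 0.05 in HepG2 and by 0.30 ± 0.05 and 0.48 ± 0.05 in HCT116. FOXM1 did not pass at 3 h in either line (-0.07 ± 0.04 in HepG2 and -0.09 ± 0.04 in HCT116). Its differences from NC at 6 h are not given here. CCNF, cyclin F, rose by 0.33 ± 0.04 in HepG2 and fell by 0.43 ± 0.05 in HCT116 at 3 h, and these effects differed (-0.76 ± 0.06). At 6 h the gap between the lines was called neither for CCNF (-0.03 ± 0.06) nor for FOXM1 (0.11 ± 0.05).

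CDKN1A, the CDK inhibitor p21, had 79.1, 82.2 and 85.5 FPKM at 3 h and 44.5, 46.0 and 49.4 FPKM at 6 h, against 24.7, 25.8 and 25.7 FPKM in NC in HCT116 with TNF-α. It rose by 1.66 ± 0.06 at 3 h (limma adjusted p = 7.08e-16) and by 0.85 ± 0.06 at 6 h. The effect of TNF-α on CDKN1A was higher in HCT116 than in HepG2, by 1.08 ± 0.09 at 3 h and 0.80 ± 0.09 at 6 h. With IL-6 and IL-10 at 3 h CDKN1A rose by 0.66 ± 0.06 and 0.72 ± 0.06 in HCT116 and by 0.75 ± 0.07 and 0.39 ± 0.07 in HepG2. With Torin1 it fell by 0.79 ± 0.07 at 3 h and 1.48 ± 0.07 at 6 h in HepG2, and in HCT116 it rose by 0.14 ± 0.06 at 3 h and fell by 0.88 ± 0.06 at 6 h. Whether any of these regulators bears on the G2/M genes was not tested.

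Genes of the G1/S transition fell against NC in HepG2 with Torin1, and falls were also called with the cytokines. Of 30 genes of G1/S and DNA replication, 0 rose and 15 fell with Torin1 at 3 h (median -0.12). Of all genes tested 19.4% were higher and 26.1% lower. At 6 h, 1 rose and 27 fell (median -0.36), where 26.1% were higher and 33.8% lower. At 6 h CDC6, which loads the replicative helicase, stood at -1.09 ± 0.03, FEN1, a nuclease of lagging-strand synthesis, at -0.94 ± 0.03 and MCM10, a factor of replication start, at -0.75 ± 0.04. Against NC at 3 h, 18 were lower and 1 higher with IL-6, 14 and 1 with TNF-α and 10 and 0 with IL-10. Of all genes tested, 19.5%, 16.9% and 11.9% were lower. At 6 h, 16, 16 and 5 were lower and 0 higher, where 11.8%, 16.8% and 9.80% were lower. Against IL-10 of the same hour, Torin1 cells had 13 lower and 2 higher at 3 h, where 24.0% and 21.5% were. They had 27 lower and 1 higher at 6 h, where 30.3% and 28.7% were. In HCT116 with Torin1, 6 rose and 12 fell at 3 h, where 25.1% of all genes tested were higher and 28.6% lower. At 6 h, 6 rose and 14 fell, where 25.8% were higher and 31.5% lower. A list of 53 further G2/M genes, 50 of them tested, had 25 higher and 5 lower with Torin1 at 3 h in HepG2 (median 0.12), where 19.4% and 26.1% of all genes tested were, and 16 higher and 18 lower at 6 h, where 26.1% and 33.8% were. In HCT116 at 3 h it had 12 higher and 15 lower with Torin1, near the 25.1% and 28.6% of all genes tested, and 4 higher and 20 lower with TNF-α, where 19.2% and 22.4% were. These lists were chosen with results of these data known.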

How the data were processed

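Polyadenylated RNA of 54 libraries was sequenced as paired ends on an MGISEQ-2000RS, per the labels. The submitters' processing notes name FastQC, HISAT2, StringTie, DESeq2 and build GRCh38, with no versions. The authors deposited 1 table of FPKM values for 50037 genes. The table also holds 48 columns of 16 comparisons by the authors, which were not used here. Values of each gene were whole multiples of what 1 read is worth for all 36451 genes above 0 (tolerance 0.01 read), and the recovered library sizes followed median-of-ratios scaling.

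Genes that reached 1 FPKM in 3 or more of a line's 27 libraries were tested on log2(FPKM + 1), pseudocount 1, with limma 3.58.1 in R 4.3.3 (moderated test with an intensity trend, all 9 groups of a line in 1 fit). P-values were adjusted by Benjamini-Hochberg over all genes tested, with a threshold of 0.05, in 29 comparisons. Differences between lines used genes passing in both. The procedure was tested on simulated data. Values in every library are given for CCNB1, CDK1, CCNA2, PLK1, AURKA, CDC20, TOP2A and MKI67. Further genes are those with up to 3 largest called rises and falls per comparison, with a mean of at least 5 FPKM and no overlap of libraries, and other members by role. The 57 genes and all lists were chosen with earlier results of these data known. Alternatives were another pseudocount, no filter, total-read scaling, limma-voom on the recovered reads, a fit of only the groups compared, a replicate block, IL-10 as control, leaving out each library and a covariate added after the data were seen. Counting error was not set against the spread between libraries. It weighs most for genes with few reads, such as SPC25 with 62 to 378 reads a library.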

Additional observations from a re-analysis of the deposited data

Results flagged for a closer look

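The results named here are those in which an agent's effect was tested between the lines and differed, as HCT116 minus HepG2 on the log2 scale. With Torin1 at 3 h the effects differed for 44 of the 55 G2/M genes, and CENPE (-1.14) and SGO2 (-0.91) had the widest gaps. With Torin1 at 6 h they differed for 26, and the widest were CENPE (-1.195) and CENPF (-0.82). With TNF-α at 3 h they differed for 22, led by KIF18A (-0.52) and KIF23 (-0.49). With TNF-α at 6 h they differed for 7, led by CDC25B (-0.58) and KIF18A (-0.49). CENPE, CENPF and SGO2 belong to the 6 genes that scatter together with 10 other genes between libraries of a group. With the mean of those 10 genes as a covariate the Torin1 gaps of CENPE were -0.56 at 3 h and -0.28 at 6 h, that of SGO2 at 3 h was -0.67 and that of CENPF at 6 h was 0.02. The 10 were chosen to follow members of the 6, so the covariate would also shrink a response that they share. Groups of 3 libraries are too small for a search for outlying samples.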

How the results depend on the processing

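Counts and values of named genes were recomputed under the alternatives that apply to them. IL-10 as control applies only to other agents against NC, and limma-voom was not run for comparisons with IL-10. Of the counts, 376 recomputed values stayed within 1.5 times and 40 moved further. Of the gene values, 4365 kept direction and side of the threshold, 250 lost the call, 83 gained it and 26 changed sign. A pseudocount of 0.1 changed no call. The largest movements came with IL-10 of the same hour in place of NC, where counts were 0 (from 27) for HCT116 IL-6 at 3 h, 0 (from 10) at 6 h, 30 (from 11) for HCT116 TNF-α at 6 h, 5 (from 30) for HepG2 IL-6 at 3 h and 8 (from 28) for HepG2 TNF-α at 3 h. Signs then turned for CDC20 (0.020), CDC25C (-0.027), FAM83D (0.055), MKI67 (0.072), PLK1 (0.035) and PSRC1 (0.024) in HCT116 IL-6 at 3 h and for CCNA2 (-0.046), CKAP2L (-0.0093), INCENP (0.041) and MKI67 (0.094) at 6 h. They turned in HCT116 for MKI67 (0.18) and PLK1 (0.024) with TNF-α at 3 h, CCNB1 (-0.15) with TNF-α at 6 h, MKI67 (0.19) and PLK1 (0.22) with Torin1 at 3 h and CCNA2 (-0.046) and MKI67 (0.11) with Torin1 at 6 h. In HepG2 they turned for CCNB1 (0.0023), CDC20 (0.077) and PLK1 (0.027) with IL-6 at 3 h, TPX2 (0.038) with IL-6 at 6 h and CDC20 (0.070) and PLK1 (0.015) with TNF-α at 3 h.

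With no filter, counts were 4 for HCT116 IL-6 at 6 h, 13 for HCT116 IL-10 at 6 h and 3 for HepG2 IL-10 at 6 h. With total-read scaling, which shifts a group against NC by -0.066 to 0.032 on the log2 scale, they were 20 for HCT116 TNF-α at 6 h and 2 for HepG2 IL-10 at 6 h. With the covariate they were 17 for HCT116 TNF-α at 6 h, 3 for HepG2 IL-10 at 6 h, 8 for HepG2 TNF-α at 6 h and 9 for its 6 h against 3 h, and CENPF (-0.028) and KIF20B (-0.19) with TNF-α at 6 h and MKI67 (-0.14) with Torin1 at 6 h in HepG2 changed sign. In fits of only the groups compared they were 11 for HCT116 IL-10 at 6 h, 10 for HepG2 IL-10 at 6 h and 3 (from 14) for HepG2 IL-6 at 6 h against 3 h. limma-voom gave 18 for HepG2 IL-6 at 6 h, 26 for HepG2 TNF-α at 6 h and 11 for the difference of TNF-α effects at 6 h. With promoter windows of 150 bases before the start, 1 gene held the E2F motif. The cause of these movements was not tested.

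Leaving out 1 library at a time gave 2 to 9 calls for HCT116 IL-6 at 6 h, 12 to 21 for HCT116 IL-10 at 6 h, 2 to 13 for HepG2 IL-6 at 6 h, 1 to 4 for HepG2 IL-10 at 6 h, 11 to 17 for HepG2 TNF-α at 6 h, 10 to 18 for HepG2 IL-10 at 6 h against 3 h and 10 to 21 for HepG2 TNF-α at 6 h against 3 h. No pairing by replicate number was seen in the values. Deviations of same-numbered libraries correlated by -0.105 to 0.117 in HCT116 and -0.139 to 0.119 in HepG2, over 108 pairs each. Whether same-numbered libraries shared a culture or day cannot be told from these correlations, and the labels do not say. The replicate block moved no count by over 1.5 times, for example 11 (from 10) for HCT116 IL-6 at 6 h.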
